A study of Mus musculus with 6 samples.

Results

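The cells described here are those that the deposited annotation names hepatic stellate cells (HSCs), taken by that name alone. They numbered 128 of 58794 annotated cells and made up cluster 26, 1 of 28 clusters that the annotation groups into 10 cell types. The libraries came from H22 tumors, a murine hepatocellular carcinoma line implanted in the liver of male, wild type C57BL/6J mice. The control mice (n = 3) received tumor cells and no stressor. The stress mice (n = 3) went through chronic unpredictable mild stress first and received the same cells afterwards, per the paper. Each mouse gave 1 library of dissociated tumor tissue, so the HSCs of a mouse share a tumor and a library. The H22 cells are an implanted line, whereas the HSCs are cells of the host.

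HSCs are the pericyte-like cells of the space between hepatocytes and the sinusoidal endothelium. In healthy liver they store vitamin A as retinyl esters, which the enzyme LRAT makes, and in injured liver and around tumors they become contractile cells that lay down collagen. PDGF and TGF-beta are the best known signals in that change.

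Control mice 1, 2 and 3 held 23, 6 and 8 HSCs, and stress mice 1, 2 and 3 held 26, 15 and 50. The HSCs of a mouse carried between 69610 and 811959 unique molecular identifiers (UMIs, tags that count captured RNA molecules), and the median HSC carried 13592, against 4538 in endothelial cells (ECs) and 27716 in tumor cells. No HSC barcode occurred in another library. Control matrices name Cell Ranger 9.0.0 in their headers and stress matrices name 7.1.0, and whether a difference between the groups belongs to stress or to that version cannot be told apart. Levels are given as CPM (counts per 1e6 UMIs), the UMIs of a gene scaled to the summed UMIs of the cells named, for 1 mouse or pooled over all mice.

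The label was first set against 5 marker genes. Col1a1 and Col3a1 encode the main chains of fibrillar collagens I and III, Dcn encodes the collagen-binding proteoglycan decorin, Pdgfrb encodes a PDGF receptor, and Rgs5 is a gene of pericytes. Pooled Col1a1 stood at 8908 CPM in HSCs, 3.99 in ECs and 0.865 in tumor cells, and 119 HSCs had at least 1 UMI of it. Col3a1 was found in 117 HSCs at 6721 CPM, and Dcn in 117 at 1783 CPM. Pdgfrb was found in 66 HSCs at 143 CPM, and Rgs5 in only 14 at 19.4 CPM. These genes chose or describe the cluster and are therefore given without a test.

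Of the 128 HSCs, 119 had UMIs of at least 2 of the 5 markers and 9 had fewer. Cells just inside this limit, with exactly 2 markers, came from control mouse 1 and stress mouse 3, and 5 of the 9 cells outside it had 1 marker, which was Rgs5. These 5 cells held 22 of the 38 Rgs5 UMIs, and the gene was at 8.42 CPM in the 119 others. The 9 cells lay in control mouse 2 (3 of its 6 HSCs), control mouse 3 (5 of 8) and stress mouse 1 (1 of 26). None had a UMI of Dcn, Col1a1, Col3a1 or Pdgfrb, so the label did not hold for them by these genes. They carried instead the epithelial keratin Krt18 (9 of 9 cells, 2869 CPM, against 77.4 CPM in the 119 others), Krt8 (8 cells, 2214 CPM), Epcam (7 cells, 1029 CPM), the secreted phosphoprotein Spp1 (9 cells, 26053 CPM), the transcription factor Sox9 (9 cells, 811 CPM) and the membrane gene Tm4sf4 (9 cells, 1263 CPM). The genes of biliary and other epithelia Mmp7, Pkhd1, Cldn4 and Cdh1 were at 1372, 1169, 795 and 702 CPM in them. Scrublet called 4 HSCs as doublets, all in control mouse 2, and 3 of these were among the 9. Because these cells are many of the HSCs in 2 control mice, results on stress are given both for all HSCs and for the 119 cells with at least 2 markers, called marker-positive HSCs here.

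**Figure D1:**
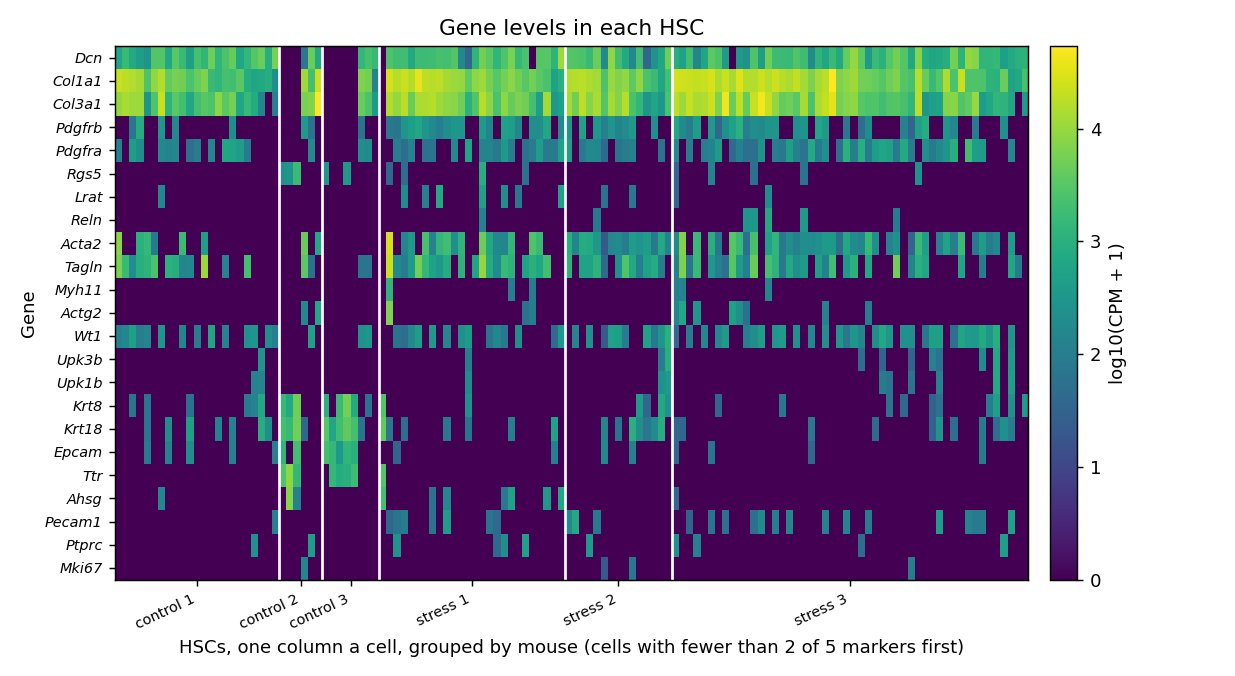
Each column is 1 of the 128 HSCs, grouped by mouse, and each row is a gene, with color giving log10(CPM + 1) of the gene in the cell. The 9 cells with fewer than 2 of 5 markers stand first within control mice 2 and 3 and stress mouse 1, with keratin genes in place of Dcn, Col1a1 and Col3a1.

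Genes by which quiescent stellate cells are usually known were sparse. Lrat had a UMI in 12 of 128 HSCs (9.38%), of which 7 were in stress mouse 1, and 22 cells (17.2%) had a UMI of Lrat, the matrix glycoprotein Reln or the lectin Colec11. Hhip was at 0 UMIs in all HSCs, where 3 counts would correspond to 1.53 CPM. The desmin gene Des was found in 45 cells at 67.7 CPM, the transcription factor gene Hand2 in 46 at 50.4 CPM and the globin Cygb in 51 at 134 CPM. The hepatocyte growth factor gene Hgf, which stellate cells of healthy liver secrete, reached 38.7 CPM in HSCs against 781 CPM in ECs. Of 19 genes of vitamin A handling and lipid droplets, 11 had a UMI in at least 10% of HSCs and 1 of these, Aldh1a2, which makes retinoic acid, was at least 4-fold above both ECs and tumor cells (65.7 CPM in HSCs).

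Matrix genes were far higher than in either other cell type. Folds here compare pooled CPM + 10 with the higher of ECs and tumor cells. Of the 9004 genes with a UMI in at least 10% of HSCs, 307 (3.41%) were at least 4-fold higher than in both. All 10 fibrillar and associated collagens were among them, each also at its highest in HSCs of the 10 cell types, and their summed level was 24806 CPM against 143 in ECs and 6.39 in tumor cells. Col1a2, the partner chain of Col1a1, stood at 5823 CPM and Col5a2 at 1314 CPM against 127 in ECs.

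Matrix glycoproteins and the enzymes that finish collagen followed. Of 18 proteoglycans and matrix glycoproteins detected, 15 passed the 4-fold limit, among them the fibulin Fbln2 (1335 CPM against 15.8 in ECs) and the calcification inhibitor Mgp (1230 against 7.78). Fn1, fibronectin, reached 4291 CPM, and Sparc 6186, yet Sparc was also at 1128 CPM in ECs. Of 18 genes of collagen crosslinking and turnover detected, 10 passed. Lox, the lysyl oxidase that crosslinks collagen, was at 653 CPM against 0.413 in ECs, and the protease inhibitor Timp1 at 3618 against 56.6. Basement membrane genes differed less, with 2 of 11 past the limit. Col4a1 was at 502 CPM in HSCs and 412 in ECs, and the perlecan gene Hspg2 was lower in HSCs, at 151 against 324 CPM.

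**Figure D2:**
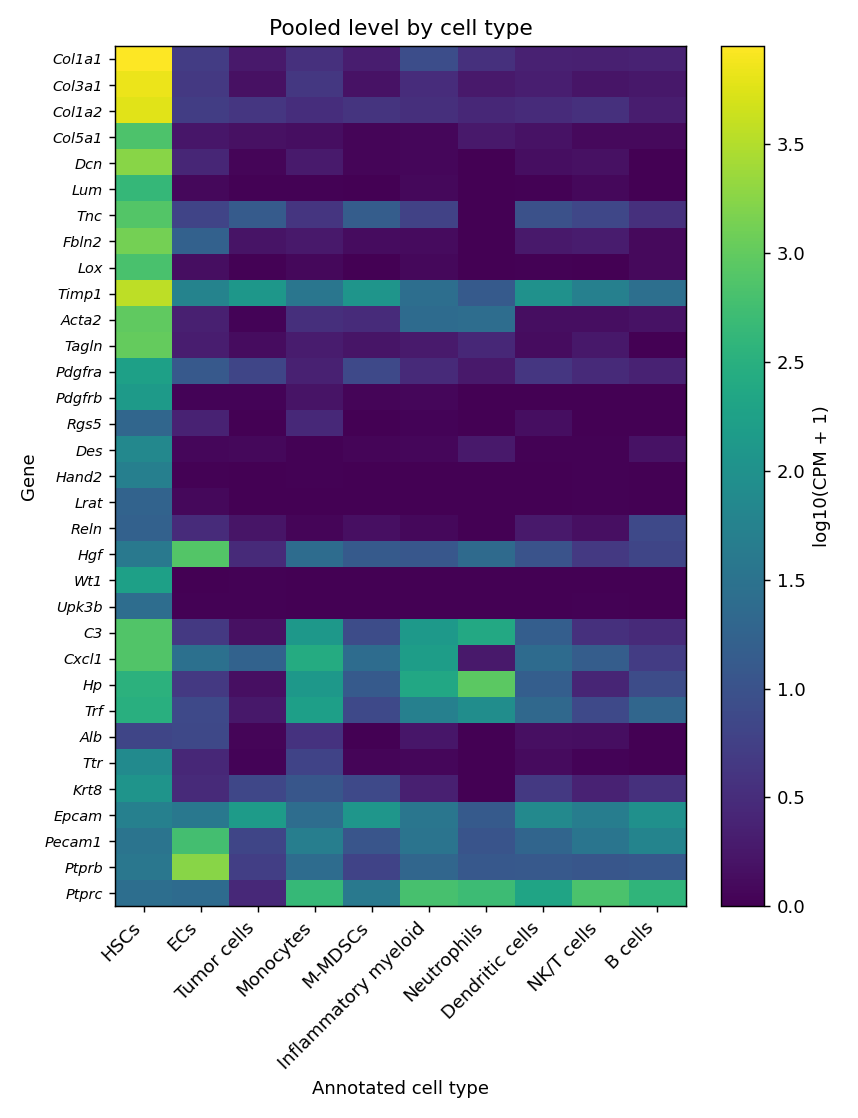
Rows are genes and columns the 10 annotated cell types, with color giving log10(CPM + 1) of UMIs pooled over 6 mice. The collagen genes, Dcn and Lox are bright in the HSC column alone, whereas Hgf is brighter in ECs than in HSCs.

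Contractile genes varied from cell to cell. Tagln and Acta2, actin-cytoskeleton genes of myofibroblasts and smooth muscle, stood at 1034 and 975 CPM in HSCs and at 1.06 and 1.25 CPM in ECs. In marker-positive HSCs Acta2 ranged from 0 to 27184 CPM, with a median of 145 CPM. Of the 128 cells, 62 (48.4%) had both genes and 32 (25%) had neither. The latter included all 9 cells with fewer than 2 of 5 markers. Control mouse 3 had no Acta2 UMI in its 8 HSCs, of which only 3 were marker-positive. Control mouse 1 had both genes in 6 of 23 HSCs, and control mouse 2 in 1 of 6, of which 3 were marker-positive. Among the stress mice the cells with both numbered 15 of 26, 12 of 15 and 28 of 50. Smooth muscle genes were rarer, with at least 2 of Myh11, Cnn1 and Actg2 in 6 cells.

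A further set of cells carried genes of the liver's mesothelial covering. Wt1, a transcription factor of mesothelium and of stellate precursors, was found in 74 HSCs (57.8%) at 174 CPM and was at 0 CPM in ECs. At least 2 of the mesothelial genes Upk3b, Upk1b, Lrrn4 and Muc16 were found in 12 cells (9.38%), of which 11 had Wt1 and 7 lay in stress mouse 3. No cell with at least 2 of these genes had at least 2 of the smooth muscle genes. With 12 and 6 such cells of 128, this cannot show whether the sets are separate. Of 14 genes of portal fibroblasts, the connective tissue cells around the portal vein, 8 had a UMI in at least 10% of HSCs and 3 of these passed the 4-fold limit. The microfibril gene Mfap5 was found in 33 cells at 112 CPM against 2.87 in ECs, and the elastin gene Eln in 21 at 57.0 CPM against 1.91. Thy1 was found in 28 cells at 32.1 CPM, whereas Gli1, Pi16 and Clec3b were at 0 UMIs.

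PDGF receptors lay mainly on HSCs and the ligands on several cell types. Pdgfra was at 176 CPM in HSCs, 11.5 in ECs and 5.63 in tumor cells, and 51 HSCs had UMIs of both receptors. The ligand gene Pdgfb was at 13.8 CPM in HSCs, 60.0 in ECs and 2.65 in tumor cells. Of its 27 UMIs in HSCs, 20 lay in the 9 cells with fewer than 2 of 5 markers, and marker-positive HSCs were at 3.69 CPM. Pdgfa was at 46.9, 27.2 and 40.2 CPM in the same order. Of the TGF-beta genes Tgfb2, a ligand, was at 162 CPM in HSCs against 3.84 in ECs. The receptor gene Tgfbr2 was lower in HSCs, at 137 against 321 CPM. Thbs1, a target of the pathway that encodes thrombospondin, was at 871 CPM in HSCs and at 34.6 in ECs.

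HSCs also held RNA of secreted inflammatory proteins. Of 19 chemokine and complement genes detected, 13 passed the 4-fold limit. The complement gene C3 stood at 757 CPM, its regulator Serping1 at 736, and the chemokine genes Cxcl1 and Ccl7, which attract neutrophils and monocytes, at 742 and 526. Saa3, an acute-phase amyloid gene, stood at 5049 CPM pooled over the mice and was found in 73 cells, with 7389 of its 9914 UMIs in stress mouse 3. Its level was 1427, 3864 and 2334 CPM in control mice and 2104, 2690 and 9100 CPM in stress mice, so the groups overlapped. Slpi, a protease inhibitor, was at 1753 CPM but was higher in B cells (6606 CPM). Of 14 secreted growth factor genes detected, 9 passed the 4-fold limit. The whole list of 24 summed to 3031 CPM in HSCs and 2584 CPM in ECs, and 4 of its genes were higher in ECs. Among those higher in HSCs, Wnt4 was at 277 CPM and Igfbp3 at 334 CPM, and both were higher than in ECs in 6 of 6 mice.

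Promoters of 4 genes are shown, 3 of them because they lead the HSC profile. Tnc, the matrix glycoprotein tenascin C, was added as the matrix gene that differed between stress and control HSCs below. Each window runs from 250 bases before the start to 50 after, from RefSeq on GRCm38.p6, at chr6:4505368-4505667 (+), chr1:45311288-45311587 (+), chr4:64046966-64047265 (-) and chr7:46715627-46715926 (-). Of the 20 genes that lead the profile, 11 were matched in the promoter table. Capitals mark matches on either strand to the TATA motif TATAAA, the box named after its letters CCAAT, the AP-1 motif TGANTCA or the GC box GGGCGG, and no marked matches overlap.
Col1a2: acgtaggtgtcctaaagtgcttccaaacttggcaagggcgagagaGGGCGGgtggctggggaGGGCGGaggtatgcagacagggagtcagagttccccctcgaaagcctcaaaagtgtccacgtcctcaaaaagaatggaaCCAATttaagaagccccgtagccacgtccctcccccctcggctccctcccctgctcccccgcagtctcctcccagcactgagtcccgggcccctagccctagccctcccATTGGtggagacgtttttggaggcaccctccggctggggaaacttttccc
Col3a1: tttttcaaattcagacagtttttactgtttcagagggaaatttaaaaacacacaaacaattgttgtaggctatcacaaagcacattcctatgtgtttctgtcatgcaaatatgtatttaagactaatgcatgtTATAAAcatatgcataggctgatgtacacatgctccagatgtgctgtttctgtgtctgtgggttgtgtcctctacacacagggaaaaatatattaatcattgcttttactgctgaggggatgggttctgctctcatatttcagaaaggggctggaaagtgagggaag
Tnc: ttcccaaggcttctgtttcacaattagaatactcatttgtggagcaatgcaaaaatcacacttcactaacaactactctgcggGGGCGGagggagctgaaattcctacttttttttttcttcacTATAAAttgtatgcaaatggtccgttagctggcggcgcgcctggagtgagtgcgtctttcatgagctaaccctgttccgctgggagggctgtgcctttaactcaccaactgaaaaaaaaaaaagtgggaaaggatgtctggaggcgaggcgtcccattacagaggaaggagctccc
Saa3: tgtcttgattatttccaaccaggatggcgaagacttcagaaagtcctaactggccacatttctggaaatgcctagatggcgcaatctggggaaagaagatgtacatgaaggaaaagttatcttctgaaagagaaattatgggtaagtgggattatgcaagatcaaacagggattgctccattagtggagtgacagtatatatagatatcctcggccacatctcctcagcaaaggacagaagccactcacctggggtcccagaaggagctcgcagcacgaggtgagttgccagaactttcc
Over all 32851 promoters of this length, the TATA motif occurred in 13.6%, the CCAAT box in 37.4%, the AP-1 motif in 7.81% and the GC box in 35.7%. Col1a2 held the CCAAT box on both strands and the GC box, Col3a1 held the TATA motif, and Tnc held the TATA motif and the GC box. The Saa3 window held none of the 4. A second Tnc start lies within the same region. In GENCODE M21 the Col1a2 gene begins at chr6:4504814, upstream of its window, so its matches hold for the RefSeq start only.

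Hepatocyte transcripts were looked for with a list of 32 genes. Of HSC UMIs they made up 0.0153%, 0.506% and 0.0817% in the control group, and the stress group had 0.192%, 0.0647% and 0.0872%. In ECs the share was between 0.00282% and 0.00781%, and in tumor cells between 0.000247% and 0.000670%. HSCs thus stood above ECs in each library. Over single cells, 41 HSCs (32%) exceeded the 95th percentile of the ECs of their own library, of which 21 were in stress mouse 3.

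Only 2 HSCs exceeded 1%, with 4.06% in a cell of control mouse 2 and 6.65% in a cell of stress mouse 1, and both were among the 9 cells with fewer than 2 of 5 markers. The 2 cells held 975 UMIs of the list, spread over 24 of its genes, including 72 of Ahsg, 68 of Fgb, 71 of Serpina1e and 89 of Ttr, which encode plasma proteins. Albumin itself gave 6 UMIs, and the metabolic genes Cps1, Cyp2e1 and Cyp3a11 gave none. The other 7 of the 9 cells held 129 UMIs, of which 64 were Ttr.

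In the 119 marker-positive HSCs the list meant other genes. Of 1062 UMIs, 553 were Hp (haptoglobin) and 450 were Trf (transferrin), 52.1% and 42.4%. Alb and Ttr were at 0 UMIs, and so were all 3 fibrinogen genes. Without Hp and Trf the share in these cells lay between 0% and 0.00727% per mouse. In ECs Trf gave 13.4% of the level of the list, Alb 12.9% and Hp 7.2%. Hp was found in 44 and Trf in 63 of the 119 cells. In marker-positive HSCs control mice had shares of 0.0153%, 0.0108% and 0.00855%, stress mice had 0.0283%, 0.0647% and 0.0872%, and no test was made of this difference.

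**Figure D3:**
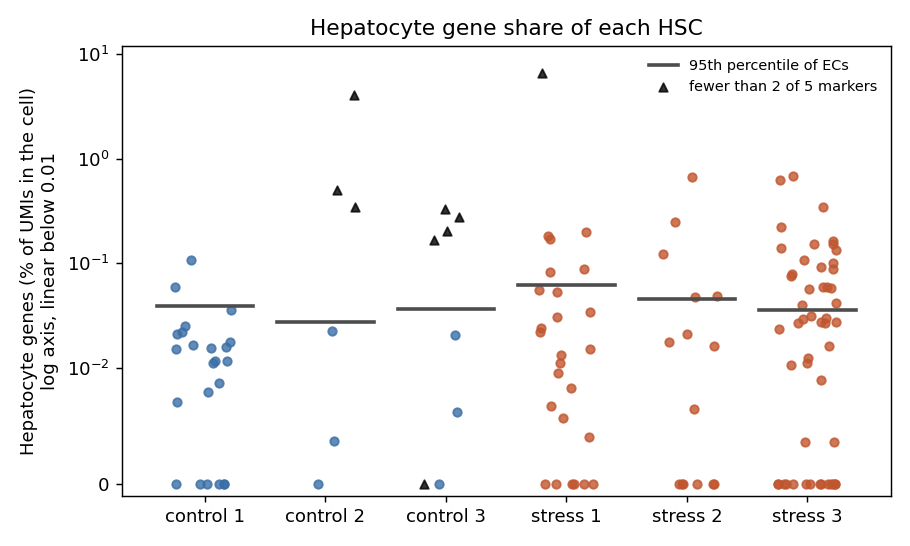
Points are single HSCs by mouse, with the share of their UMIs from 32 hepatocyte genes on a log axis that is linear below 0.01%, and bars mark the 95th percentile of ECs in the same library. The 2 highest points, at 4.06% and 6.65%, are triangles, which mark cells with fewer than 2 of 5 markers.

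RNA of other cell types was low but uneven. The 10 endothelial genes summed to 302 CPM in HSCs against 7973 in ECs, and ranged from 25.9 to 172 CPM in control and from 146 to 506 CPM in stress mice. Stress mouse 3 held all 6 HSCs with at least 3 of Pecam1, Cdh5, Kdr, Ptprb and Stab2. Ptprc, a leukocyte gene, was found in 11 HSCs. The 14 cycling genes summed to 331 CPM in HSCs, 590 in ECs and 1525 in tumor cells, and were found in between 4 HSCs (Mki67) and 72 (Pcna), with Top2a in 26. Their sum ranged from 273 to 1164 CPM in control and from 120 to 629 CPM in stress mice.

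The share of HSCs among annotated cells was compared to ask whether stress changed their number. Control mice had 0.218%, 0.0511% and 0.0864%, and stress mice had 0.359%, 0.159% and 0.473%. Stress mouse 2 lay below control mouse 1, so the groups overlapped. The means were 0.119% ± 0.0882 (SD, n = 3) and 0.330% ± 0.159 (SD, n = 3), and the two-sided exact permutation test over mice gave p = 0.20, where 3 against 3 cannot go below 0.10. This test thus could not have reached 0.05 with 3 mice a group, so it does not settle whether the share differs. For marker-positive HSCs the means were 0.0921% ± 0.109 and 0.326% ± 0.158, with exact permutation p = 0.20.

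**Figure D4:**
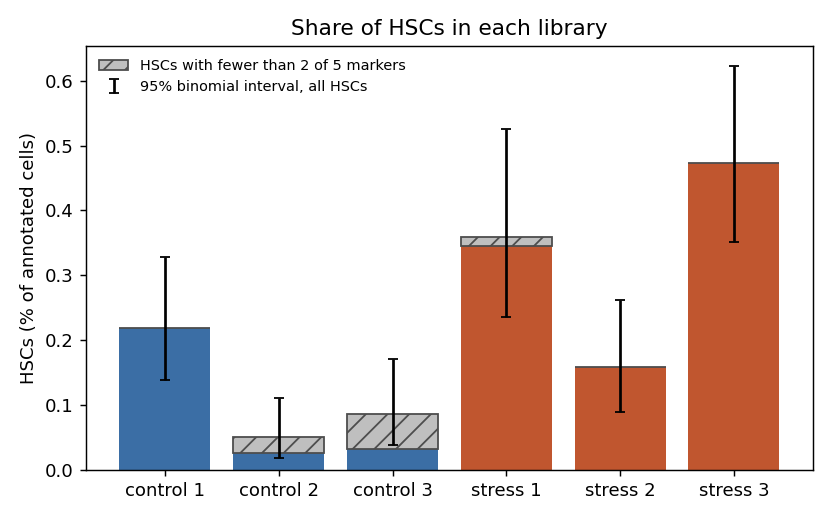
Bars give HSCs as a percentage of annotated cells in each library, with hatched parts for cells with fewer than 2 of 5 markers and lines for the exact 95% binomial interval, which covers counting error only. Stress mouse 3 is highest at 0.473% and control mouse 2 lowest at 0.0511%.

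Genes were then compared between stress and control HSCs with UMIs summed per mouse and edgeR's quasi-likelihood test. There were 5 genes that rose and none fell among 4575 tested, 0.109% of them, and 428 had an unadjusted p under 0.05. Without the 4 called doublets, which leaves 2 HSCs in control mouse 2, none of the 5 passed in edgeR, with adjusted p values of 0.128 to 0.204 and log2 fold changes of 2.48 to 3.46. DESeq2 on all HSCs called 15 higher and 5 lower, the latter being Cd9, H2-Eb1, Sorbs2, Krt8 and Epcam, of which the last 3 were carried by the 9 cells with fewer than 2 of 5 markers. Tnc, a glycoprotein of wounded and tumor matrix on chr4:63959785-64047015 (GRCm38, minus strand), was at 93.4, 158 and 38.9 CPM in control and 864, 764 and 1139 CPM in stress mice. Every stress mouse was above every control mouse, as for 15.1% of all genes tested in either direction. The log2 fold change was 3.31 ± 0.45 (SE), with an adjusted p of 0.0315. Cells with a Tnc UMI numbered 8 of 23, 1 of 6 and 2 of 8 in control mice and 18 of 26, 11 of 15 and 35 of 50 in stress mice. The control side rests on 42 Tnc UMIs in all. In marker-positive HSCs the log2 fold change was 2.95 ± 0.44, with an adjusted p of 0.0278 by edgeR, and over all alternatives the adjusted p of Tnc ran from 1.72e-09 to 0.301. Without control mouse 3 or any one of the stress mice it was not past the threshold.

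In ECs Tnc was at 0.910, 15.6 and 1.21 CPM in control and 0.287, 9.46 and 3.37 CPM in stress mice. The change in HSCs exceeded that in ECs by 3.52 ± 0.68 on the log2 scale, and the edgeR interaction test with the mouse as a block gave an adjusted p of 0.00145. This test uses a single measure of spread (dispersion) per gene for HSC and EC sums together. The spread among the small HSC sums is thus not measured apart, and a small interaction p does not make a call within HSCs firmer.

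Gm13889, a protein-coding gene on chr2:93955810-93957201, was at 26.7, 14.4 and 13.0 CPM in control and 262, 419 and 143 CPM in stress mice. Its log2 fold change was 3.62 ± 0.54, with an adjusted p of 0.0452 by edgeR, and the control values rest on 10 UMIs. Leaving out 1 mouse at a time gave adjusted p values of 0.0387 to 0.312 by edgeR, and it stayed past the threshold only without control mouse 1. In ECs it stayed between 19.99 and 35.5 CPM in all mice, and the edgeR interaction test had an adjusted p of 1.1e-06. With its spread shared between HSC and EC sums, that p does not make the call within HSCs firmer.

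Hp, whose protein binds free hemoglobin, was at 66.7, 43.1 and 51.9 CPM in control and 402, 391 and 446 CPM in stress mice. Pooled over mice it was at 341 CPM in HSCs and 3.50 in ECs, but was higher in neutrophils (909 CPM). Its log2 fold change was 2.85 ± 0.35, with an adjusted p of 0.0289 by edgeR. Single cells carried most of its UMIs in stress mice 1 and 2. In stress mouse 1, 115 of 170 Hp UMIs came from the cell with 6.65% hepatocyte UMIs, and in stress mouse 2, 105 of 110 came from 1 cell. In stress mouse 3 it was found in 25 of 50 cells, and the highest cell held 103 of 362 UMIs. Without control mouse 3 or any one of the stress mice Hp was not past the threshold, with adjusted p values of up to 0.265 by edgeR. In marker-positive HSCs the log2 fold change was 2.25, with an adjusted p of 0.200 by edgeR and 0.0397 by DESeq2, and without the HSCs above the EC percentile, a set chosen in part by Hp itself, the log2 fold change was 0.02.

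Camk1d, a calcium-dependent kinase gene, and Gphn, which encodes the synaptic scaffold gephyrin, rose in HSCs by 3.03 ± 0.39 and 2.42 ± 0.36 on the log2 scale, with adjusted p of 0.0289 and 0.0452 by edgeR. Camk1d went from 187, 101 and 130 CPM to 1155, 1009 and 1374. Leaving out 1 mouse at a time gave adjusted p values of 0.00721 to 0.288 for Camk1d and 0.0234 to 0.372 for Gphn by edgeR. Neither passed without control mouse 3 or any one of the stress mice, nor did Gphn without control mouse 2. Both genes also rose in ECs, by 2.60 and 2.70 on the log2 scale, and in tumor cells, by 2.19 and 2.02. For neither did the HSC and EC changes differ past the threshold (interaction adjusted p of 0.863 and 0.992 by edgeR). The part of the counting version in these values cannot be told apart from that of stress.

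In marker-positive HSCs 6 of 4428 genes rose, 0.136%, and none fell, with 385 at an unadjusted p under 0.05. DESeq2 called 12 higher and 6 lower in these cells. Tnc, Gm13889, Camk1d and Gphn were among them, and Cmss1 was added. It was at 107, 43.2 and 107 CPM in control and 659, 537 and 1115 CPM in stress mice, so the groups did not overlap. Cmss1 rose by 3.04 ± 0.46 in HSCs, with an adjusted p of 0.0278 by edgeR, and by 2.96 in ECs and 1.84 in tumor cells on the log2 scale. The HSC change exceeded the EC change by only 0.14 ± 0.54, not past the threshold of the edgeR interaction test. Here too the part of the counting version cannot be told apart from that of stress. Leaving out 1 mouse at a time gave Cmss1 adjusted p values of 0.0288 to 0.240 in marker-positive HSCs by edgeR.

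**Figure D5:**
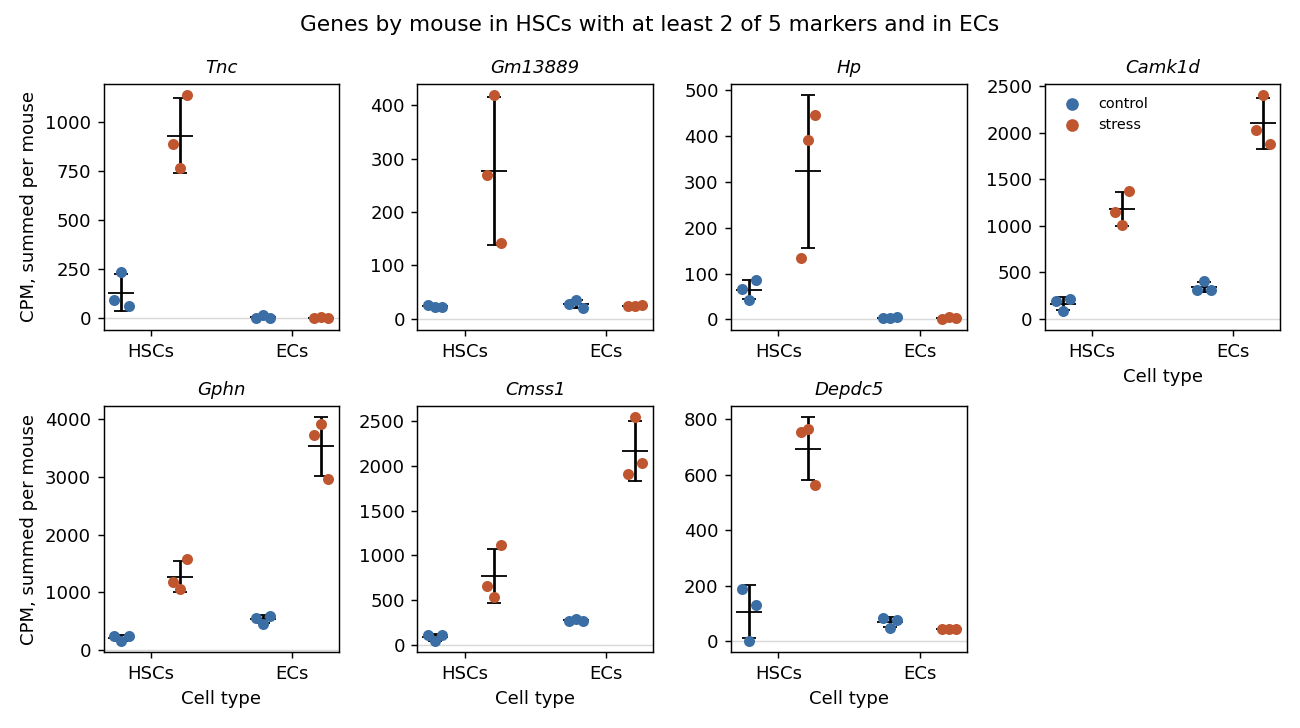
Points give CPM per mouse in marker-positive HSCs and in ECs, blue for control and orange for stress, with bars for the mean and SD of 3 mice. Tnc and Depdc5 are high in stress HSCs alone, whereas Camk1d, Gphn and Cmss1 are high in HSCs and ECs of stress mice.

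Most genes of the stellate program did not pass the test, and the same held for most genes. Over all 4575 genes tested 5 passed in edgeR (0.109%), and 428 had an unadjusted p under 0.05. Among 6 genes of stellate cell identity none passed in edgeR or DESeq2, and 3 had an unadjusted p under 0.05. The median log2 fold change of these 6 was 1.13, or 0.85 in marker-positive HSCs, where none had such a p. Of 10 collagens tested none passed in edgeR or DESeq2, and 2, Col14a1 and Col1a1, had an unadjusted p under 0.05. Their median log2 fold change was 0.69, against 0.00 over all genes tested, and it was 0.30 in marker-positive HSCs, against 0.04. Col1a1 was at 5902, 5502 and 2463 CPM in control and 10324, 6154 and 11138 CPM in stress mice. The difference of 1.04 ± 0.46 on the log2 scale had an adjusted p of 0.528 by edgeR. In marker-positive HSCs its control values were 5902, 8271 and 4061 CPM and the groups overlapped. Of 16 proteoglycan and glycoprotein genes 1 passed, Tnc, and 5 had an unadjusted p under 0.05. Of 18 crosslinking and turnover genes none passed in edgeR and 5 had an unadjusted p under 0.05, whereas DESeq2 called Adamts1, a matrix protease gene with a log2 fold change of 2.42 ± 0.41 and an edgeR adjusted p of 0.0818. Of 10 contractile genes none passed in edgeR or DESeq2, 1 had an unadjusted p under 0.05, and Acta2 had a log2 fold change of 0.46 ± 1.04.

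Signaling and stress-hormone genes gave as few calls. Over all genes tested, 428 of 4575 had an unadjusted p under 0.05. None of 17 TGF-beta genes or 4 PDGF genes passed in edgeR or DESeq2, with 2 and 1 at an unadjusted p under 0.05. Of 8 genes of glucocorticoid and adrenergic signaling tested none passed in either tool and none had an unadjusted p under 0.05, and their median log2 fold change was 0.31. The receptor gene Nr3c1 was at 93.2 CPM in HSCs, and Adra2b and Adrb3 were at 0 UMIs. Of 17 chemokine and complement genes none passed in either tool, and 4 had an unadjusted p under 0.05.

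The interaction test asked which genes changed differently in HSCs and ECs of the same mice. Of 13895 genes 98 passed (0.705%), 57 with a larger and 41 with a smaller change in HSCs, and 77 of 13781 passed (0.559%) with marker-positive HSCs, 52 larger and 25 smaller. Leaving out 1 mouse at a time gave 63 to 233 genes. The count was 233, 176 and 63 when control mice 1, 2 and 3 in turn were dropped, and 150 when stress mouse 1 was. Among the 41 were Epcam, Tm4sf4 and Pkhd1, genes that the 9 cells with fewer than 2 of 5 markers carried. The 3 with the smallest p were genes of antigen presentation by MHC class II, Cd74, H2-Aa and H2-Eb1, with differences of -3.54 ± 0.42, -3.78 ± 0.45 and -3.71 ± 0.44. Cd74 was at 250, 2040 and 609 CPM in control HSCs and 35.4, 188 and 313 CPM in stress HSCs. In marker-positive HSCs it was at 250, 626 and 0 CPM in control and 31.5, 188 and 313 CPM in stress mice, so the groups overlapped. Of the 75 Cd74 UMIs in HSCs of control mouse 1, 61 came from 1 cell. With marker-positive HSCs the differences of Cd74, H2-Aa and H2-Eb1 were -2.21 ± 0.43, -3.34 ± 0.45 and -3.26 ± 0.45. Each was past the threshold of the edgeR interaction test. That test shares its dispersion between HSC and EC sums, so it does not measure the spread of the small HSC sums apart. Its small p-values are limited by this, since single cells carried most of the control UMIs in marker-positive HSCs. In control mouse 1 the highest cell for the gene held 54 of 58 H2-Aa and 44 of 50 H2-Eb1 UMIs. In control mouse 2 such a cell held 27 of 28 and 29 of 30, and 1 cell held all 29 Cd74 UMIs. A UMI of H2-Aa was found in 20.7% of control and 28.9% of stress marker-positive HSCs. Cd74 was at 12.5, 87.7 and 17.3 CPM in control ECs and 34.6, 149 and 82.7 CPM in stress ECs. The highest Cd74 level in HSCs was in control mouse 2, where the doublet calls lay, and the leukocyte genes there summed to 359 CPM, against 25.9 to 142 CPM in the other mice. Over 11 alternatives, which included dropping the called doublets or control mouse 2, the difference of Cd74 ran from -4.21 to -2.21. The adjusted p of Cd74 stayed at or below 0.00022 by the edgeR interaction test. The part of leukocyte RNA in the result was not tested. Depdc5, a regulator of the mTOR pathway, was at 187, 0 and 77.8 CPM in control HSCs and 737, 764 and 561.6 CPM in stress HSCs, and its difference from ECs was 3.70 ± 0.47, or 3.34 ± 0.46 with marker-positive HSCs.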

How the data were processed

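Dissociated tumors were run as 10x Genomics libraries. The deposited matrices hold whole UMI counts that were not normalized, with mm10 named in the submitters' processing notes, and a table of cell types. Per the authors' methods, cells with many mitochondrial reads or few genes, and Scrublet doublets, had been removed. No source used here gives further counting settings. HSCs were taken as annotated, and scanpy 1.11.5 Scrublet calls per library served as an alternative. For each mouse the UMIs of its HSCs were added up, and edgeR 4.0.16 (R 4.3.3) ran the quasi-likelihood test after filterByExpr and TMM, with Benjamini-Hochberg adjustment over all genes tested and a threshold of 0.05. The step was tested on simulated data in which every gene had the same dispersion. That does not cover sums of few HSCs in which single cells hold most UMIs of a gene. DESeq2 1.42.0 was an alternative. Comparisons with ECs and tumor cells are descriptions, since cells were clustered on these genes. Named genes were the markers, the 20 largest folds over ECs and tumor cells, the highest list members, list members at 0, up to 5 called genes with the largest changes, and the 5 smallest interaction p. The members and lists were chosen with earlier results of these data known. Genes of the cells with fewer than 2 of 5 markers, and those shown beside an alternative, were named after their values were seen. Some genes, 1 of the called ones included, are not reported here. Positions come from GENCODE M21 (GRCm38).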

Additional observations from a re-analysis of the deposited data

Results flagged for a closer look

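The stress change differed between HSCs and ECs of the same mice in 98 genes by the edgeR interaction test, and in 63 (without control mouse 3) to 233 (without control mouse 1) with 1 mouse left out. That test does not measure the spread of HSC sums apart from that of EC sums. Cd74, H2-Aa and H2-Eb1 had differences of -3.54, -3.78 and -3.71 on the log2 scale, HSCs minus ECs. Depdc5 and Gm13889 had differences of 3.70 and 3.85. Of the genes called in HSCs, Tnc differed by 3.52 and Hp by 2.97. Without the HSCs of high hepatocyte share, a set chosen in part by Hp itself, the difference of Hp was 0.076, with an adjusted p of 1.0 by edgeR.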

How the results depend on the processing

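The difference in HSC share among annotated cells was positive under every alternative run, from 0.129 to 0.233 percentage points, and from 0.140 to 0.297 with 1 mouse left out. It was 0.280 and 0.862 percentage points of cells other than tumor cells and of ECs, or 0.324 and 0.998 for marker-positive HSCs. The threshold could not be reached by the exact tests used with these numbers of mice, so their p-values say nothing of stability. The count of 5 genes called between stress and control HSCs was 265 with no filter on low counts and 20 with DESeq2. It was 0 without called doublets (370 at an unadjusted p under 0.05, edgeR). Leaving out 1 mouse gave 0 to 68 genes, with 68 without control mouse 1 and 0 without control mouse 3 or any one stress mouse (323 to 391 at an unadjusted p under 0.05). With only mice of at least 10 HSCs, which leaves 1 control mouse against 3 stress mice and assumes that it varies like them, 4 genes passed. For marker-positive HSCs, in alternatives chosen after seeing the data, DESeq2 gave 18 and leaving out 1 mouse 0 to 21. Same-numbered deviations correlated at 0.0898, 0.0327 and 0.0134, and differently numbered ones at -0.0812 to 0.0502. These few values do not settle whether the replicate numbers pair the mice. With the replicate block 8 genes passed, 9 in marker-positive HSCs, and the share had an exact sign-flip p of 0.25. The interaction count of 98 was 64 without HSCs of high hepatocyte share and 63 to 233 with 1 mouse left out. For Gphn the difference between HSCs and ECs, never past the threshold, reversed to 0.021 without called doublets, and for Gphn and Cmss1 it ranged from -0.41 to 0.13 and from -0.13 to 0.77 over all alternatives. The 307 genes of at least 4-fold were 713 at 2-fold, 135 at 8-fold, 599 with a pseudocount of 1 CPM and 152 with cells thinned to 1000 UMIs. The stress minus control difference in hepatocyte share, -0.0861 percentage points, became 0.0485 in marker-positive HSCs, 0.0813 without called doublets and 0.0663 without control mouse 2, and ranged from -0.179 to 0.0663 with 1 mouse left out. The causes were not tested. With 6 and 8 HSCs in 2 control mice, low genes rest on a few UMIs.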
